A study of Mus musculus with 2 samples.

Results

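The 26 genes described here encode 19 enzymes of cholesterol synthesis and its isoprenoid branch, 6 regulators, and the sterol carrier Stard4. The regulators are the transcription factor SREBP2 itself and proteins that control it. The 26 genes were chosen by name, from the list of the pathway. All 26 were found among the 23444 gene symbols of the series and among the 11288 genes detected in it. The gene that encodes the sterol methyl oxidase is listed under its older symbol Sc4mol (now Msmo1). The data are 2 RNA-seq libraries of macrophages grown in culture from mouse bone marrow, both from mice of the FVB strain. The label of one is WT, with RON proficient, and that of the other is RON TK-/-, with RON deficient (the receptor lacks its tyrosine kinase). They are here called the WT labelled and the TK-/- labelled library. Both labels state 10 ng/mL of recombinant interleukin-4 for 72 hours. There was 1 library per group, so no difference has a replicate check, no test was run, and every "higher" or "lower" compares these 2 libraries and not the genotypes.

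Cholesterol is built from acetyl-CoA through mevalonate, farnesyl pyrophosphate, squalene and lanosterol, and farnesyl pyrophosphate also feeds the isoprenoids that are attached to proteins. The supply is set by a feedback loop. When the endoplasmic reticulum is rich in sterols, INSIG proteins hold the escort protein SCAP and its cargo SREBP2 there. When sterols are low, SCAP carries SREBP2 to the Golgi, where the site-1 and site-2 proteases release a fragment that enters the nucleus and switches on the enzymes of the pathway, together with the factors NF-Y and Sp1. In macrophages the same pathway balances the cholesterol that the cells take up from debris and lipoproteins.

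All 19 enzymes and Stard4 had higher FPKM (fragments per kilobase of a transcript relative to the reads of its library) in the TK-/- labelled library. The ratios of FPKM ran from 1.92 for Ggps1 to 15.3 for Mvd. The ratios of the 6 regulators ran from 0.891 for Scap to 2.32 for Insig1, and that of Insig1 was above those of Ggps1 and Ebp (2.02). Counted on the scale of log2(FPKM + 1), a difference of 2-fold or more was found for 19 of 26 members with the higher value in the TK-/- labelled library and for 0 with the lower. Over all 11288 detected genes the shares were 25.6% and 8.71%. At 4-fold or more the count was 12 of 26, where 3.71% of detected genes reached that ratio. The added 1 understates the ratios of genes at low levels, and a gene counted as detected with at least 1 FPKM in either library. Of the 6562 detected genes whose level in the WT labelled library lay within the range of the members, 23.6% were 2-fold or more higher. The median log2 ratio was 1.82 over the members and 0.57 over all detected genes. Within the members it was 2.18 for the 19 enzymes and 0.34 for the 6 regulators.

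The libraries were unlike each other well beyond this pathway. The coverage column implied about 59700000 reads in the WT labelled library and about 67100000 in the other. The targeted gene Mst1r was listed at 0 FPKM in both libraries and checked neither label. The markers of the interleukin-4 response summed to 72.2 FPKM in the WT labelled library and to 14326 in the TK-/- labelled library, and the classical activation markers Nos2, Il1b and Tnf to 3185 and 4.35. The pathway is thus compared between a library with high interleukin-4 response markers and one with high classical activation markers, although both labels state interleukin-4. Whether their difference goes with genotype, with activation state or with the library cannot be told apart. The low Arg1, Retnla and Chil3 of the WT labelled library stand apart from its stated interleukin-4, and the reason was not tested. No value here checks whether the genotype labels are right or exchanged between the libraries, and each direction rests on them as deposited. Macrophage markers were present at 8 of 8 in both libraries, with a sum of 5531 and 6309 FPKM, most of it Lyz2 (3317 and 4651). Single markers differed more, with Cd14 at 1010 and 33.7, Mertk at 32.5 and 9.68 and Fcgr1 at 26.6 and 3.58 FPKM. Fibroblast markers were also present at 4 of 4, with a sum of 261 and 459 FPKM and Col1a1 at 195 and 250, and their part in the results was not tested. The sum of neutrophil, dendritic cell, T cell, B cell, mast cell or erythroid markers was at most 2.34 FPKM per list in either library, and S100a9, Cd3e and Cpa3 were listed at 0 in both.

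**Figure D1:**
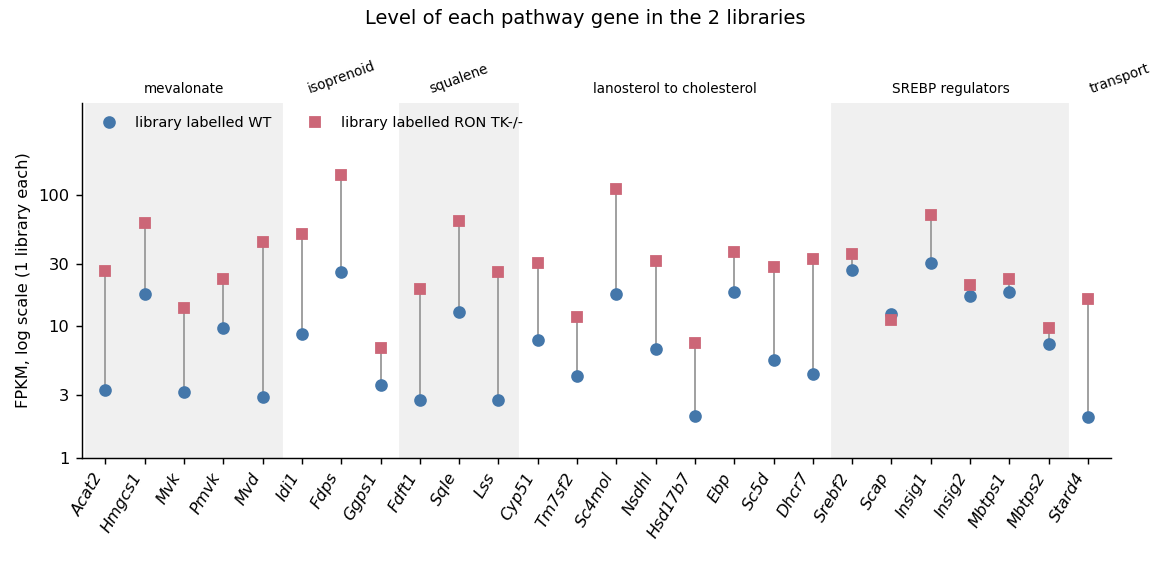
FPKM of each of the 26 genes (vertical axis, log scale) in the WT labelled library (circles) and the TK-/- labelled library (squares), 1 library each, with grey lines joining the values of a gene and shaded bands marking the steps of the pathway. All enzymes and Stard4 lie higher in the TK-/- labelled library, from Ggps1 at 6.85 FPKM to Fdps at 142, whereas the pairs of Srebf2, Scap, Insig2, Mbtps1 and Mbtps2 lie close together.

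As a description, the DNA before the transcription starts of the members was examined for the elements through which SREBP2 and its partners act. Whether such elements bear on the ratios was not tested. RefSeq promoter sequences of the GRCm38.p6 build (strain C57BL/6J, not FVB) were matched for 22 of 26 members, and not for Fdps, Fdft1, Sqle and Stard4. Each window held 300 bases, of which 250 lay before the start, and genes with several starts had several windows. Both strands were searched for the sterol response element TCACNCCAC, the NF-Y box CCAAT and the GC box GGGCGG, which Sp1 binds. The first 250 bases are shown for 6 members, with matches in capitals. Hmgcs1 was chosen because it held the sterol element, Mvd, Lss and Sc4mol because of their ratios, Insig1 as the regulator with the highest ratio, and Mbtps2 as a regulator without a match.
Hmgcs1 (chr13:119690101-119690350, plus strand): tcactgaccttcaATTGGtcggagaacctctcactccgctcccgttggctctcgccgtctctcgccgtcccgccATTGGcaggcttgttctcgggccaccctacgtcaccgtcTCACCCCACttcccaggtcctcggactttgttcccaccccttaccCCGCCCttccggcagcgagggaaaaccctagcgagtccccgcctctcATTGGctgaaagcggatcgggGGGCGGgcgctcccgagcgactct
Mvd (chr8:122443423-122443672, minus strand): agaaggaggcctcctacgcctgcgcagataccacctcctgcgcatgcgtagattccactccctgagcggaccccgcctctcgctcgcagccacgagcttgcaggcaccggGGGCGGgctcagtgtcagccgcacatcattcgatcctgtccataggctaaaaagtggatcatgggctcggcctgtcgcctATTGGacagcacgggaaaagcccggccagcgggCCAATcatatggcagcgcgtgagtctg
Lss (chr10:76531355-76531604, plus strand): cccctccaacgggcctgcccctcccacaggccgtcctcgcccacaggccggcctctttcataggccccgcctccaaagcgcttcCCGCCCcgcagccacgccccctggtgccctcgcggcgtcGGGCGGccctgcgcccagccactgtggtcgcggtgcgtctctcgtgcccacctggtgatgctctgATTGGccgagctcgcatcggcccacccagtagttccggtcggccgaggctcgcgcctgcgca
Sc4mol (chr8:64733579-64733828, minus strand): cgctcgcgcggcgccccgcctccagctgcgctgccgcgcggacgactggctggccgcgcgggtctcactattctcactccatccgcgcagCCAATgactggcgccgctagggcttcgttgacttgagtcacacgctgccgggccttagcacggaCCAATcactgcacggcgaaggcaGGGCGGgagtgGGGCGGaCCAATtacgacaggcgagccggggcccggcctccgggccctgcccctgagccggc
Insig1 (chr5:28071162-28071411, plus strand): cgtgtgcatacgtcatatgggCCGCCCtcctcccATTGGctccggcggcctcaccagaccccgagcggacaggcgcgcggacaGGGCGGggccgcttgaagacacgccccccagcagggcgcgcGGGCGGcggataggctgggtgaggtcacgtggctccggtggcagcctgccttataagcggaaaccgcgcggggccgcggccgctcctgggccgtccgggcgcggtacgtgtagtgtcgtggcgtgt
Mbtps2 (chrX:157598716-157598965, minus strand): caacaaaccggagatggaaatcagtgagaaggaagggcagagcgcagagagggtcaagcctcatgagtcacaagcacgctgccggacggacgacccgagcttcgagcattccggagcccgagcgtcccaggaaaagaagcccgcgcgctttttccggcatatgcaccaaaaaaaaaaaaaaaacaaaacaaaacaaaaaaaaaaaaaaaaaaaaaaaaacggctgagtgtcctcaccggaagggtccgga

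Every sequence is written 5′ to 3′ on the strand of its gene, so a box on the other strand appears as its reverse complement. The sterol element matched in 1 of 22 members, Hmgcs1, as TCACCCCAC beginning 137 bases before the start. It matched in 1.43% of the 8513 detected genes with a window. A match in any window of a gene counted, also for the detected genes. By this count the CCAAT box matched in 15 of 16 enzymes with a window, the exception being Acat2. It matched in 3 of 6 regulators (Srebf2, Insig1 and Insig2), against 42.6% of detected genes. For 2 of these enzymes, Dhcr7 and Pmvk, the box lay only at a start well away from that of the measured rows. In Dhcr7 it lay only at the start at 143830214, while the measured row begins at 143823167, whose window held 0. In Pmvk it lay only at the start at 89454541, while the rows begin at 89459118 and 89459571. Smaller differences were found for Hmgcs1 (119690351 for the promoter sequence and 119690462 for the measured row) and Mvk (114444269 and 114444306). The same held for Lss (76531605 and 76531627) and, on the minus strand, Ggps1 (14063488 and 14063401). Distances of matches count from the start used for the promoter sequence. The GC box matched in 14 of 16 enzymes, without Pmvk and Ggps1, and in 5 of 6 regulators, without Mbtps2, against 69.7% of detected genes. In the printed sequences Sc4mol held 3 CCAAT boxes beginning 160, 96 and 55 bases before the start and 2 GC boxes beginning 73 and 62 bases before it. Mvd held 2 CCAAT boxes in opposite orientations, beginning 60 and 27 bases before the start. In Insig1 the single CCAAT box lay further away, beginning 216 bases before the start. Mvk carried the most CCAAT boxes of any window, 5, followed by Hmgcs1 and Nsdhl with 4. These matches describe letters, not occupied sites, and a missing match says only that these letters are not in the window.

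The enzymes that make mevalonate and carry it to isopentenyl pyrophosphate come first. Acat2, the cytosolic thiolase that joins acetyl-CoA units, had 3.26 FPKM in the WT labelled library and 26.3 in the TK-/- labelled library. This was a ratio of 8.07, with a 95% interval of 7.27 to 8.95 from the counting error of estimated reads. The interval here and below is an exact conditional (Clopper-Pearson) one, covers counting error only, and does not hold the spread between animals or cultures. Hmgcs1, which makes HMG-CoA, had 17.4 FPKM in the WT labelled library and 60.9 in the other, a ratio of 3.49 (3.36 to 3.63). Mvk, the mevalonate kinase, had 3.15 and 13.8 FPKM, a ratio of 4.39 (3.89 to 4.98). Pmvk, the next kinase, had 9.76 and 23.1 FPKM, a ratio of 2.36 (2.16 to 2.58).

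Mvd, which decarboxylates mevalonate pyrophosphate, showed the largest ratio of all 26 genes. It had 2.87 FPKM in the WT labelled library, from about 298 reads, and 43.8 in the TK-/- labelled library, from about 5243. The ratio of 15.3 (13.6 to 17.2) placed Mvd above 99.5% of all detected genes. Mvd lies on chromosome 8 from 122433596 to 122443422 of mm10, on the minus strand. Acat2 lies on chromosome 17 from 12943042 to 12960725 and Hmgcs1 on chromosome 13 from 119690462 to 119708077. These 5 early enzymes together had 36.5 and 168 FPKM.

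The isoprenoid steps split at their branch point. Idi1, the isomerase that makes dimethylallyl pyrophosphate, had 8.72 FPKM in the WT labelled library and 50.4 in the TK-/- labelled library, a ratio of 5.79 (5.48 to 6.12). Fdps, which makes the farnesyl pyrophosphate from which sterols and prenyl groups derive, was the most abundant enzyme in both libraries at 25.98 and 142 FPKM, a ratio of 5.48 (5.22 to 5.75). The intervals of Idi1 and Fdps overlapped. Ggps1, which extends farnesyl to geranylgeranyl pyrophosphate and so leads away from cholesterol, had 3.57 and 6.85 FPKM. Its ratio of 1.92 (1.73 to 2.14) was the lowest of the 19 enzymes, and its log2 ratio of 0.78 was above the median of all detected genes by 0.21.

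The squalene steps commit carbon to sterols, and all 3 of their enzymes had at least 4.90 times the value in the TK-/- labelled library. Fdft1, the squalene synthase, had 2.73 FPKM in the WT labelled library and 19.3 in the other, a ratio of 7.08 (6.43 to 7.81). Sqle, the epoxidase that is a control point of the pathway, had 12.9 and 63.4 FPKM, a ratio of 4.90 (4.68 to 5.14). Lss, which closes the rings to give lanosterol, had 2.73 and 25.8 FPKM. Its ratio of 9.44 (8.63 to 10.4) was second to that of Mvd, and the 2 intervals did not overlap. Lss lies on chromosome 10 from 76531627 to 76553934.

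From lanosterol to cholesterol, 7 of 8 enzymes were 2-fold or more higher on the log2(FPKM + 1) scale. Cyp51, which removes a methyl group of lanosterol, had 7.86 FPKM in the WT labelled library and 30.01 in the TK-/- labelled library, a ratio of 3.82 (3.64 to 4.01). Tm7sf2, a sterol reductase, had 4.20 and 11.8 FPKM, a ratio of 2.80 (2.48 to 3.15). Sc4mol, which oxidises the methyl groups that are then removed, had 17.6 and 111 FPKM, a ratio of 6.30 (6.01 to 6.62), and was second in abundance to Fdps in the TK-/- labelled library.

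The partners of Sc4mol in the same demethylation had smaller ratios. Nsdhl had 6.71 and 31.2 FPKM, a ratio of 4.66 (4.33 to 5.01), and the ketosteroid reductase Hsd17b7 had 2.07 and 7.42 FPKM, a ratio of 3.58 (3.26 to 3.94). Hsd17b7 was thus the least abundant enzyme in the WT labelled library and next to the least abundant in the other.

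Ebp, the isomerase that shifts the ring double bond, was the exception among these 8. It had 18.3 FPKM in the WT labelled library, second only to Fdps among the enzymes, and 36.9 in the TK-/- labelled library. The ratio was 2.02 (1.91 to 2.13), and its log2 ratio of 0.98 on the log2(FPKM + 1) scale fell just inside 2-fold. Sc5d, the desaturase, had 5.49 and 28.4 FPKM, a ratio of 5.18 (4.78 to 5.61). Dhcr7, the reductase that ends the route through 7-dehydrocholesterol, had 4.31 and 32.3 FPKM, a ratio of 7.504 (6.94 to 8.12). Large ratios thus stood at the early (Acat2 and Mvd), squalene (Lss) and final (Dhcr7) steps of the pathway, and the ratios did not run in the order of the steps.

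**Figure D2:**
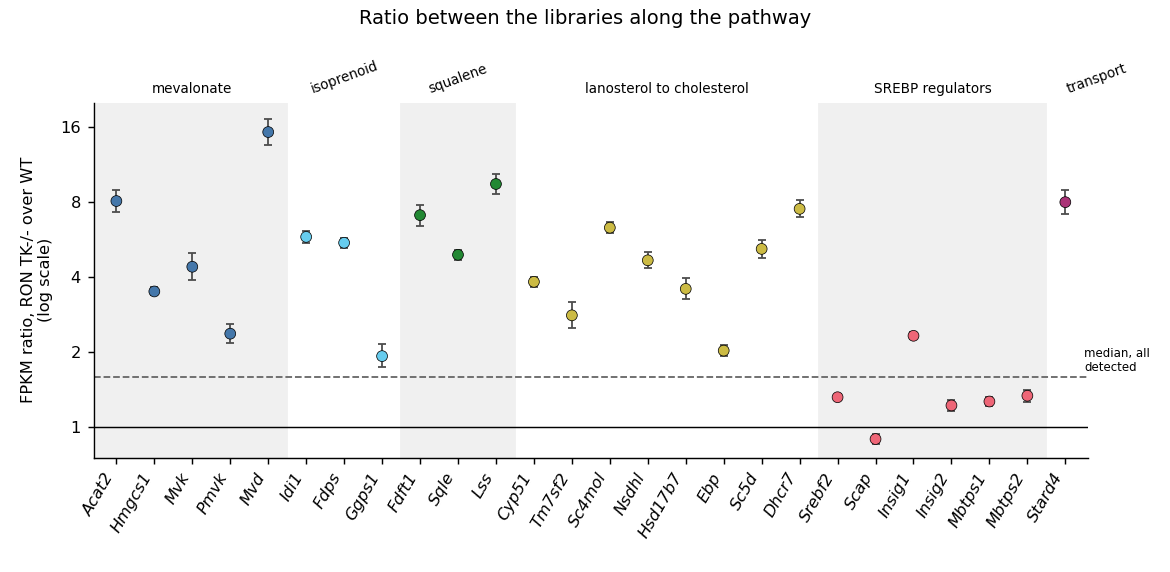
Ratio of FPKM in the TK-/- labelled library over the WT labelled library for each gene (vertical axis, log scale), ordered along the pathway, with bars for the 95% counting interval of estimated reads, which does not hold the spread between cultures. The solid line marks a ratio of 1 and the dashed line the median of all detected genes (1.58), and 19 enzymes, Stard4 and Insig1 lie above the dashed line while 5 regulators lie below it.

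The regulators formed a different picture. Srebf2, which encodes SREBP2 itself, was among the more abundant members in the WT labelled library, with 27.0 FPKM against 35.4 in the TK-/- labelled library. Its ratio of 1.31 (1.27 to 1.35) was below the median ratio of all detected genes. The proteases that cleave SREBP2 had close values too, with Mbtps1 at 18.1 and 22.8 FPKM, a ratio of 1.26 (1.21 to 1.31), and Mbtps2 at 7.27 and 9.67 FPKM, a ratio of 1.33 (1.26 to 1.41). Scap, the sterol-sensing escort, was the only member with a lower value in the TK-/- labelled library, at 12.5 and 11.1 FPKM and a ratio of 0.891 (0.847 to 0.936).

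The INSIG genes were unlike each other. Insig1, a retention protein whose gene is itself an SREBP2 target, was the most abundant of all 26 members in the WT labelled library with 30.4 FPKM, and had 70.5 in the TK-/- labelled library. Its ratio was 2.32 (2.24 to 2.40), which made it the 1 regulator of 6 past 2-fold. Insig2, its relative with the same function, had 16.8 and 20.5 FPKM, a ratio of 1.22 (1.15 to 1.28). Insig1 was thus 1.81 times as abundant per length as Insig2 in the WT labelled library and 3.45 times in the TK-/- labelled library. Insig1 lies on chromosome 5 from 28071412 to 28078662, Insig2 on chromosome 1 from 121304353 to 121332589 and Srebf2 on chromosome 15 from 82147269 to 82204960.

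Stard4, which carries cholesterol between membranes and is not an enzyme of the pathway, had values like those of the enzymes. It was the least abundant member in the WT labelled library with 2.03 FPKM and had 16.2 in the TK-/- labelled library, a ratio of 7.98 (7.15 to 8.94). This interval overlapped those of Acat2, Dhcr7, Fdft1 and Lss.

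The sign of the regulators depended on how the libraries were scaled. Rescaling the TK-/- labelled library so that the median log2 ratio of detected genes was 0 took Srebf2 to -0.26, Insig2 to -0.36, Mbtps1 to -0.31 and Mbtps2 to -0.22. Scap went to -0.75 and Insig1 to 0.54. The enzymes kept their direction, with log2 ratios from 0.22 for Ggps1 and 0.34 for Ebp to 2.89 for Mvd. After this rescaling 15 of 26 members kept a difference of 2-fold or more and 0 were lower by that much, against 8.42% and 13.9% of all detected genes. The 4 genes that had been past 2-fold before rescaling and were within it afterwards were Pmvk, at 0.53, Tm7sf2, at 0.70, Hsd17b7, at 0.89, and Insig1.

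**Figure D3:**
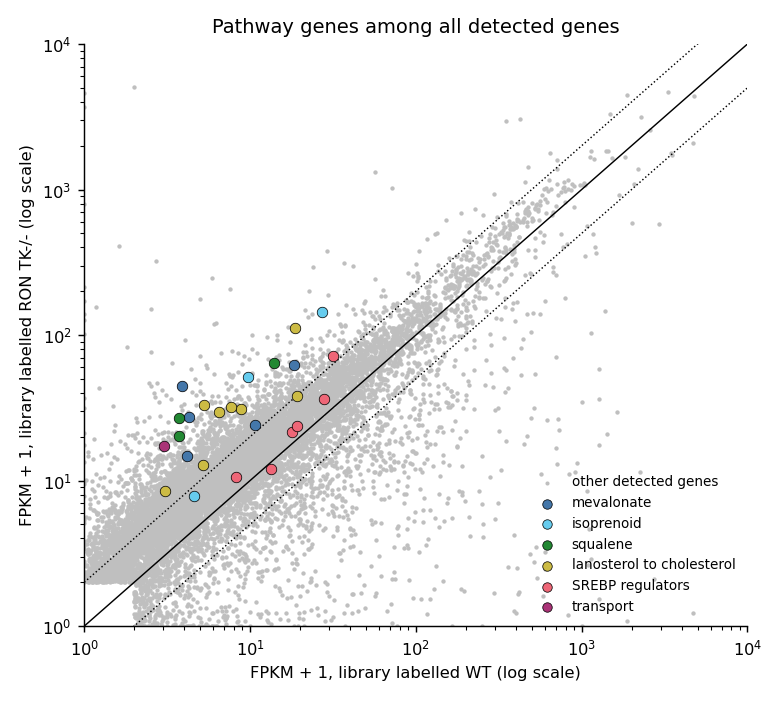
FPKM + 1 of every detected gene in the TK-/- labelled library (vertical axis, log scale) against the WT labelled library (horizontal axis, log scale), with pathway genes coloured by role, a solid line for equal values and dotted lines for 2-fold. Of the coloured points 19 of 26 lie on or above the upper dotted line and none below the lower one, and the 5 regulators other than Insig1 lie near the solid line.

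Summed over the 19 enzymes, the pathway held 160 FPKM in the WT labelled library and 765 in the TK-/- labelled library, a ratio of 4.79. As a share of all FPKM this was 0.0374% and 0.171%. Levels were unequal between enzymes in both libraries, since the highest exceeded the lowest by 12.5 times in the WT labelled library and by 20.8 times in the TK-/- labelled library. Fdps held 16.3% and 18.6% of the sum. Sc4mol held 11.0% and 14.5%, while Ebp went from 11.4% to 4.82%. Mvd held 1.80% in the WT labelled library, rank 16 of 19, and 5.73% in the other, rank 6. Pmvk had rank 6 and then 14, and Ggps1 rank 13 and then 19.

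Across the 19 enzymes the levels in the libraries had a Spearman rho of 0.73 and a Pearson r of log2 FPKM of 0.77, given as a description since the genes share both libraries. Over 9605 genes at 1 FPKM or more in each library rho was 0.79. The level in the WT labelled library and the ratio had a rho of -0.31 over the enzymes, and both contain the same value. Compared with other detected genes, several enzymes lay higher in the order of levels in the TK-/- labelled library. In the WT labelled library, Lss and Fdft1 lay above 29.0% and 29.1% of detected genes and Mvd above 30.1%, and in the TK-/- labelled library they lay above 75.6%, 68.4% and 85.7%.

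Transcript rows gave a further difference, in Scap. The files list 2 RefSeq transcripts of Scap. NM_001001144, of 4226 bases, had 10.3 FPKM in the WT labelled library and 3.15 in the TK-/- labelled library. NM_001103162, of 4138 bases, had 2.20 and 7.95 FPKM. The share of the first transcript in the FPKM of the gene was therefore 82.3% in the WT labelled library and 28.4% in the TK-/- labelled library, while the sum of both was 12.5 and 11.1 FPKM. The transcripts begin at different first exons on chromosome 9. The first exon of NM_001103162 spans 110333288 to 110333349 and has 62 bases, and that of NM_001001144 spans 110333356 to 110333505 and has 150 bases, by GENCODE exons with the same starts. The difference of 88 bases equals the difference in length of the 2 rows. Only reads that touch these first exons can tell the transcripts apart, so the split is a model estimate from a small part of the roughly 3155 and 3075 reads of the gene, and has no error of its own in the files.

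The other members with several rows had smaller shifts. Insig2 has 4 rows, and the share of NM_178082, which begins at the most distant start, was 64.5% in the WT labelled library and 52.0% in the TK-/- labelled library. In that gene NM_133748 had 28.9% and 42.7%. Taken alone, the most abundant row of Insig2 had a log2 ratio of -0.028, against 0.27 for the sum of rows. In Fdps the shorter transcript NM_134469 had 85.3% and 87.1%, and in Mbtps1 the transcript NM_001167910 had 89.2% and 92.5%. A single row held at least 98.9% of Pmvk and of Mvd in both libraries.

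**Figure D4:**
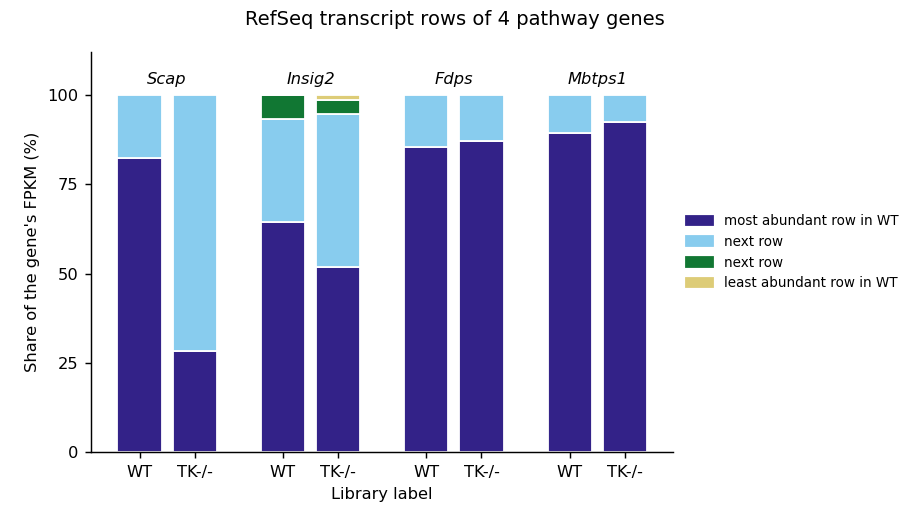
Share of each gene's FPKM (vertical axis, percent) held by its RefSeq transcript rows in the WT labelled library and the TK-/- labelled library (TK-/-), for Scap, Insig2, Fdps and Mbtps1, with colours in the order of abundance in the WT labelled library. The dark segment of Scap goes from 82.3% to 28.4%, whereas those of Fdps and Mbtps1 differ by under 4 percentage points.

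Some members share exon sequence with neighbours, and the use of strand in counting was not stated in the labels or headers. By GENCODE M21 exons, 10 members overlap another gene, and 6 of them overlap a gene that the files list. The exons of Fdft1 share 774 bases with those of Ctsb, a lysosomal protease gene on the opposite strand that had 2566 and 2555 FPKM, so reads of Ctsb could have been counted to Fdft1. Mbtps2 shares 2867 bases with Yy2 (1.47 and 2.11 FPKM) and Tm7sf2 532 bases with Vps51 (8.82 and 13.6 FPKM), in both cases on the same strand. Lss shares 381 bases with 4930483K19Rik, Ggps1 257 with Arid4b and Cyp51 166 with Akap9, each on the opposite strand and each partner below 5 FPKM in both libraries. Without these 6 genes, 15 of 20 members were 2-fold or more higher, with a median log2 ratio of 1.95. The members lie on 14 chromosomes, and the closest pair, Fdps and Pmvk on chromosome 3, is 357150 bases apart.

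Genes that surround the pathway were compared through 4 lists of 52 entries, of which all 51 found in the files were detected. Of these 51 genes, 12 (23.5%) were 2-fold or more higher and 1 was 2-fold or more lower, close to the 25.6% of all detected genes that were higher, and their median log2 ratio was 0.74. After the rescaling to a median ratio of 0 described above, 1 of the 51 was higher (Osbpl2) and 4 were lower (Gramd1a, Rnf145, Rnf139 and Stard3). Over all detected genes the shares were then 8.42% higher and 13.9% lower. The balance thus turned with the scaling for all detected genes, and not for these lists in particular. Users of isoprenoids, such as prenyl transferases and the enzymes of ubiquinone and dolichol synthesis, were 2-fold or more higher for 3 of 17 genes: the transferase subunit Fnta and the dolichol genes Dhdds and Dolk. Electron donors of the sterol oxidases were higher for 1 of 7, Cyb5b, and genes of sterol-regulated degradation and SREBP turnover for 2 of 16, one of them Fbxw7. The list of sterol transport and esterification had 6 of 12 higher and 1 lower, with a median of 0.99. After rescaling, 0 genes of the first 3 lists were past 2-fold higher, Fnta, Dhdds, Dolk and Cyb5b were at log2 ratios of 0.63, 0.48, 0.67 and 0.69, and 2 genes of the degradation list were past 2-fold lower. In the transport list 1 was then higher and 2 were lower.

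By gene, the 3 highest ratios of these lists belonged to Osbpl2, Tmem97 and Fbxw7. Osbpl2, an oxysterol-binding protein relative, had 1.77 FPKM in the WT labelled library and 12.3 in the TK-/- labelled library. Tmem97, a membrane protein that binds the cholesterol exporter of lysosomes, had 14.1 and 46.1 FPKM, and that exporter, Npc1, had 22.7 and 67.2. Fbxw7, the ubiquitin ligase subunit that marks nuclear SREBP for degradation, had 2.81 and 10.2 FPKM. The 3 lowest were Gramd1a, Rnf145 and Rnf139. Gramd1a, which moves cholesterol from the plasma membrane to the endoplasmic reticulum, had 54.3 and 13.3 FPKM, while its relative Gramd1b had 3.75 and 12.2. Rnf145 and Rnf139, ubiquitin ligases of the sterol pathway, had 25.3 and 13.3 FPKM in the WT labelled library and 13.6 and 8.09 in the TK-/- labelled library, both within 2-fold before rescaling.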

How the data were processed

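RNA of 2 libraries was measured as single reads of 50 bases, per the labels' protocols. The authors deposited FPKM values and the coverage (a signal of mean read depth per base) for each RefSeq transcript in Cufflinks columns, per the file headers. The build mm10 and the program DESeq are named without a role in the submitters' processing notes; no source used here names the aligner.

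Rows of a gene were summed with pandas 2.3.3 in Python 3.11.15. Ratios are of FPKM as deposited; calls of 2-fold use a pseudocount of 1 and a minimum of 1 FPKM in either library. Estimated reads were coverage times length over read length. They gave the 95% counting intervals (scipy 1.17.1), and members had from about 298 to 13729 of them. With 1 library a group there is no test. Calls and intervals were checked on simulated data. Members, lists, motifs and alternatives were chosen with earlier results of these data known, and the 6 printed promoters after values were seen. All 26 members are named; of the other lists, the rule named the 3 highest and 3 lowest ratios, and members of counts of 5 or fewer, Npc1, Gramd1b and Stard3 were chosen after their values were seen. Some genes of the lists are not reported here by name. Alternatives were other pseudocounts, minimums, scalings, thresholds and single rows.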

Additional observations from a re-analysis of the deposited data

How the results depend on the processing

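Under the alternatives run at 2-fold, 15 to 20 members were higher and 0 lower. The share of all genes used that were higher moved too, from 8.42% after rescaling to a median ratio of 0 (15 members) and 8.71% with a pseudocount of 5 (16 members) to 34.8% with a pseudocount of 0.1 (20 members). A 1.5-fold threshold gave 21 members against 48.9% of genes, and a 4-fold threshold 12 against 3.71%. The median log2 ratio of members was 2.01 with a pseudocount of 0.1, 1.4996 with a pseudocount of 5, 1.20 after the rescaling, and 1.95 without the 6 members that share exons with a listed gene, an alternative added after seeing the data. That rescaling took the ratio of summed enzyme FPKM from 4.79 to 3.03. It also turned the sign of Srebf2 (-0.26), Insig2 (-0.36), Mbtps1 (-0.31) and Mbtps2 (-0.22), and taking only the most abundant row turned that of Insig2 (-0.028). By construction, rescaling multiplies every FPKM of 1 library by the same factor. Estimated reads scaled to library totals, also added later, gave 19 higher and a median of 1.81. No paired analysis was possible because each group has 1 library, and for the same reason no library could be left out. The depth limits single genes little, since every member had at least about 298 estimated reads, but the spread between cultures is unknown.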
